A study of Caenorhabditis elegans with 25 samples.

Results

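The C-type lectin genes of Caenorhabditis elegans carry the symbol clec and a number. The count table of this study names 240 of them among 42532 genes, and 132 had 10 or more counts in at least 5 of the 25 libraries. Those 132 genes are described here, and 130 of them passed the filter on low counts and were tested, clec-40 and clec-136 being too low. The rule used counts without regard to genotype. Just inside its threshold were clec-175 and clec-40, in which the fifth library from the top held 10 and 11 counts, and just outside it were clec-118 and clec-76, in which it held 9. None of the 108 clec genes left out exceeded 34 counts in any library, and 20 of them had no count at all.

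C-type lectins carry a protein fold first known from calcium-dependent sugar-binding proteins. The family is greatly expanded in nematodes, many of its members are predicted to be secreted, and sets of clec genes change in the intestine when worms meet bacterial pathogens, partly under the p38 MAP kinase PMK-1. Many members have no known ligand. FLP-17 is an FMRFamide-like neuropeptide made by the BAG sensory neurons, and EGL-6 is a G protein-coupled receptor for it, known for the inhibition of egg laying.

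Poly(A) RNA of whole day 1 adults grown on OP50-1 bacteria was sequenced in 5 genotypes with 5 libraries each and 500 to 600 animals per sample. N2 was the wild type. The flp17(lof) strain AEF243 carries flp-17(n4894)IV, and the egl6(lof) strain AEF236 carries egl-6(n4537)X. The flp-17oe strain AEF148 carries the extrachromosomal array ssrEx1193, which joins flp-17p::flp-17::GFP, a fusion driven by the gene's own promoter, with myo-3p:mCherry, a red muscle marker, and the flp-17oe x egl-6(lof) strain AEF237 carries the same array with egl-6(n4537)X. The 4 strains other than N2 had been outcrossed 6 times. Animals of both array strains were sorted by their fluorescence 24 hours before collection, and the other animals were washed and replated without sorting. The design held no array strain lacking the added gene, so added flp-17, the array itself and sorting cannot be told apart. Replicate 1 of each genotype formed batch 1 and replicates 2 to 5 formed batch 2. The labels do not say that replicates were separate cultures, so p-values measure the spread between these samples, which may be technical. In whole worms, fewer cells of a type and less RNA per cell cannot be told apart.

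Libraries held 25164923 to 99717657 counts, and the 132 genes took 0.214% to 0.356% of them. Levels are given as CPM, counts scaled to a common library size that TMM factors had adjusted. Mean flp-17 levels were 4.62 CPM in N2, 0.310 in flp17(lof) and 4.64 in egl6(lof), against 188 in flp-17oe and 232 in flp-17oe x egl-6(lof). Mean egl-6 levels were 2.81 and 2.89 CPM in the egl-6(n4537) strains and 6.03 to 6.33 in the others. The flp17(lof) replicate 1 library stood apart, with 9.5% ribosomal RNA against 0.276% to 3.12% elsewhere and a TMM factor of 0.740 against 0.981 to 1.05.

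The C-type lectin genes spanned a wide range of levels. In N2, 6 of the 132 averaged 100 CPM or more, 24 lay between 10 and 100, 31 between 1 and 10, and 71 below 1, while 108 were detected in every one of the 25 libraries. Per kilobase of exon, clec-87 was the most abundant in N2 at 849 ± 73.6 CPM per kb (SD, n = 5), and clec-63 followed at 293 ± 36.6. Next came clec-88 at 232 ± 24.9, clec-91 at 207 ± 17.6, clec-1 at 160 ± 14.6 and clec-50 at 158.5 ± 19.1 CPM per kb. The last of the leading 8 were clec-150 at 82.4 ± 6.74 and clec-47 at 75.9 ± 6.38 CPM per kb. The N2 libraries of clec-87 lay above all of those of clec-63, whereas clec-63 and clec-88, clec-88 and clec-91, clec-1 and clec-50, and clec-150 and clec-47 overlapped as neighbours in this order. Strand-blind counting would mix clec-87 with iars-2, a gene on the opposite strand, whose mean was 86.4 to 93.2 CPM in the 5 genotypes. It would likewise mix 22 of the 132 genes with an exon on the opposite strand, and 10 overlap an exon on their own strand.

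**Figure D1:**
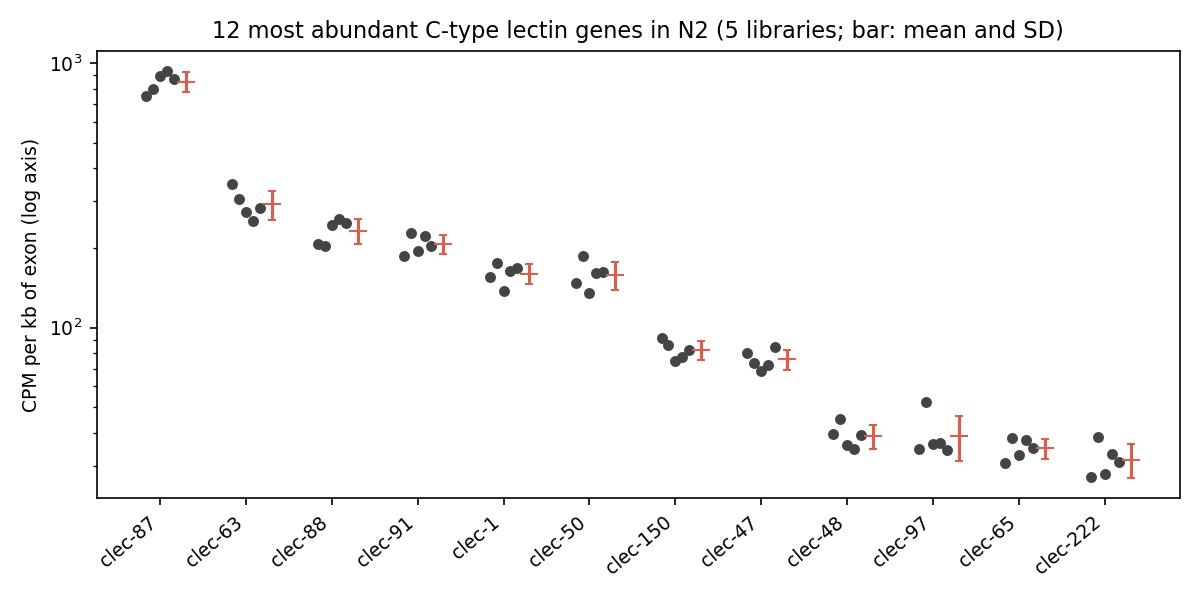
The 12 most abundant C-type lectin genes in N2, in CPM per kilobase of exon on a log axis, with a point for each of the 5 libraries and a bar for their mean and SD. The 5 clec-87 points, whose mean is 849 CPM per kb, lie above every other gene.

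Members lay on all 6 chromosomes, 44 on V, 34 on IV, 27 on II, 15 on I, 9 on III and 3 on X. Of the 132, 72 stood in runs of neighbouring protein-coding clec genes, and 21 such runs held 2 or more members. The longest run with array-raised members counted 13 clec genes, 10 of them members, at chrV:16839121-16869840 (build ce11).

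Loss of flp-17 function was compared first with the wild type. No C-type lectin gene passed an adjusted p of 0.05 by edgeR's quasi-likelihood test in flp17(lof) against N2, and DESeq2 called 0 as well. Of all genes tested, 0.041% were called higher and 0.0342% lower. At an unadjusted p under 0.05, 2 members were higher and 4 lower, with no share of all genes counted at that threshold. The median log2 difference was -0.02 over the members and 0.01 over all genes. The flp17(lof) libraries of clec-67, an infection-response gene, held 0.913, 1.24, 1.27, 1.32 and 1.10 CPM, and those of N2 held 1.66, 1.62, 1.39, 1.42 and 1.53. These groups did not overlap, and clec-67 was the only member with that pattern here, which 0.335% of all genes showed downwards and 0.205% upwards. Its log2 difference was -0.39 (SE 0.13), with an edgeR adjusted p of 0.9995.

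Loss of egl-6 function gave no call either when both batches were fitted together. In egl6(lof) against N2, edgeR called 0 members, beside 0.424% of all genes higher and 0.0615% lower. At an unadjusted p under 0.05, 12 members were higher and 2 lower, with no share of all genes counted at that threshold. DESeq2 called 4 higher and 1 lower. The lowest edgeR adjusted p was 0.0532, for clec-153. Within batch 2 alone, however, edgeR called 21 of 128 tested members higher and 0 lower, beside 4.6% and 0.165% of all genes. This count thus depended on the batch 1 libraries, and the genes involved are taken up with the sperm transcripts.

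Of those 21 genes, clec-67 rose by 0.46 on the log2 scale within batch 2 (adjusted p 0.0185, edgeR) and clec-85 by 0.32 (adjusted p 0.0351). Another was clec-266, on the X chromosome, which rose by 0.69 (adjusted p 0.0364). In all 25 libraries the estimate for clec-266 was 0.58 (SE 0.21), with an adjusted p of 0.275. Its egl6(lof) libraries held 9.71, 10.5, 9.22, 9.58 and 10.7 CPM and its N2 libraries 8.28, 8.28, 6.80, 5.18 and 4.47. All 5 egl6(lof) libraries lay above all 5 of N2, a pattern shown by this member alone and by 1.06% of all genes, while 0 members and 0.396% of all genes lay wholly below.

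The array strain was then compared with the wild type, to see what added flp-17 goes with. In flp-17oe against N2, 24 of the 130 tested lectins rose and 3 fell (edgeR, adjusted p under 0.05), which is 18.5% and 2.31% of them, beside 4.78% and 2.18% of all genes. Of the 24 risers, 12 exceeded a 2-fold change. The median log2 difference was 0.00 over both the members and all genes. All 5 array libraries lay above all 5 of N2 for 19 members and below them for 5, beside 4.98% and 3.68% of all genes.

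The array comparison was repeated in the receptor mutant, in flp-17oe x egl-6(lof) against egl6(lof). Its contrast shares no library with the first, though a single fit of all 25 libraries served both. Here 29 of 130 members rose and 32 fell, or 22.3% and 24.6%, beside 6.02% and 8.38% of all genes. A stricter count filter, which kept 16 of the 32 genes that fell, gave 28 rises and 15 falls, and a fit of the compared genotypes only gave 22 and 13. The array libraries lay above all egl6(lof) libraries for 22 members and below all of them for 8, beside 3.35% and 4.84% of all genes. Of the risers, 20 were common to both comparisons, which is 83.3% of the 24 and 69% of the 29. Over all genes, 419 risers were common, 59.9% and 47.6% of the 2 sets. Of the falls, clec-7 and clec-10 were common, 66.7% of the 3 and 6.25% of the 32. Over all genes the 202 common falls made up 63.3% and 16.5%.

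**Figure D2:**
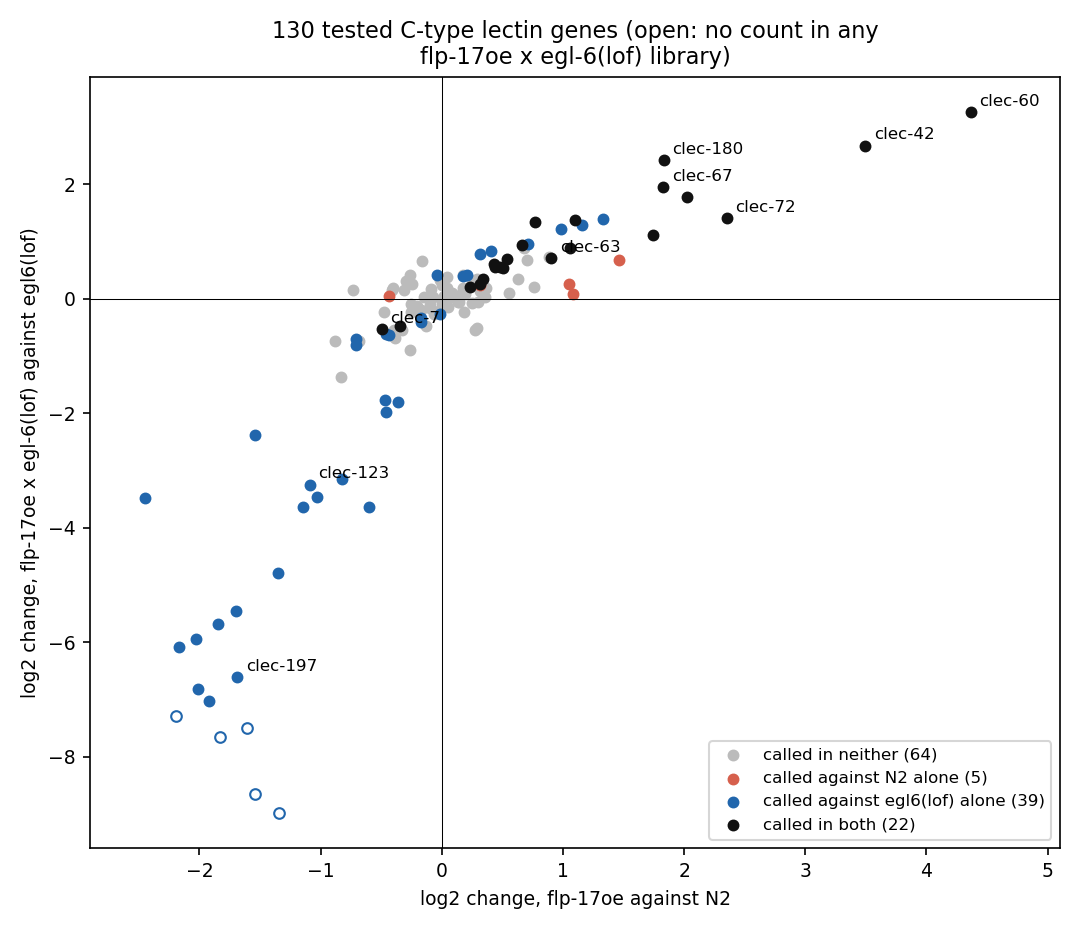
Log2 change of each of the 130 tested C-type lectin genes with the array in wild-type animals (horizontal axis) and in egl-6(lof) animals (vertical axis), coloured by where edgeR called it. Risers called in both lie at the upper right. The furthest, clec-60 and clec-42, met the rule with the help of array libraries, so their place is partly fixed by that choice. The falls called against egl6(lof) alone run down the lower left. There, open circles mark 5 genes with no count in any flp-17oe x egl-6(lof) library, whose fitted values are no measure of size.

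The 20 common risers were clec-4, clec-17, clec-42, clec-60, clec-62, clec-63, clec-64, clec-65, clec-67, clec-72, clec-74, clec-85, clec-86, clec-145, clec-150, clec-160, clec-166, clec-180, clec-186 and clec-205. Their log2 changes ran from 0.23 (clec-160) to 4.37 (clec-60) against N2 and from 0.22 (clec-160) to 3.27 (clec-60) against egl6(lof). The rule itself bears on part of these counts. Of the 132 members, 9 had 10 or more counts in fewer than 5 of the 15 libraries without the array and met the rule with the help of array libraries. Those 9 included 4 of the 24 risers against N2 (clec-17, clec-42, clec-60 and clec-64) and 5 of the 29 against egl6(lof) (the same 4 and clec-33). The first 4 were also among the 20 common risers and, against N2, among the 12 above 2-fold and the 19 that lay wholly above. The rises of these 5 genes were thus partly fixed by the choice of members, and 20 and 24 risers remained among the 122 other tested genes. The rule bears on the falls against egl6(lof) too. Many of those genes had 10 or more counts in at most 1 array library and met the rule through the others. They were clec-92, clec-94 to clec-96, clec-117, clec-134, clec-137, clec-138, clec-161, clec-197, clec-207, clec-208, clec-217, clec-219 and clec-232. Their falls were likewise partly fixed. clec-263, which fell too, was 1 of the 9 helped by an array library. It had 10 or more counts in 1 array library and 4 others, so its fall was partly fixed as well. The abundant member clec-63 (chrII:12895638-12897446) carried most of the extra lectin RNA. Its N2 libraries held 452, 398, 354, 327 and 368 CPM and its flp-17oe libraries 650, 783, 665, 723 and 699. The egl6(lof) libraries held 463, 398, 422, 439 and 415 CPM, and those of flp-17oe x egl-6(lof) 778, 607, 658, 730 and 744. In both backgrounds every array library lay above every library without the array, and the log2 rises were 0.90 (SE 0.10, adjusted p 4.84e-06) and 0.72 (SE 0.10, adjusted p 7.33e-05). One library without the array, flp17(lof) replicate 1, reached 664 CPM.

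Summed over the 132 genes, N2 libraries held 2615 to 2736 CPM and flp-17oe libraries 3041 to 3382, while the flp-17oe x egl-6(lof) libraries held 2999 to 3405. All 10 array libraries exceeded all 15 others, which ran from 2596 to 2888. Of the 498 CPM by which the mean sum rose over N2, clec-63 gave 324, or 65.2%, and of the 513 CPM over egl6(lof) it gave 276, or 53.9%.

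clec-63 lies in the run clec-62 to clec-66 (chrII:12893062-12906644), in which 4 of the 5 genes rose in both backgrounds. Mean clec-62 levels were 19.8 ± 3.65 CPM in N2 and 40.7 ± 5.40 in flp-17oe (SD, n = 5), a log2 rise of 1.06 (SE 0.12, adjusted p 7.93e-06). The low member clec-64 rose by 1.74 (SE 0.38, adjusted p 0.00511) from 0.1002 to 0.3401 CPM. Its neighbour clec-65 rose by 0.44 (SE 0.07, adjusted p 0.000619) from 40.8 to 55.4 CPM. The last gene, clec-66, held 11.0 ± 2.16 and 11.3 ± 2.13 CPM, a log2 difference of 0.04 (SE 0.13, adjusted p 0.859). Against egl6(lof), clec-62, clec-63, clec-64 and clec-65 were again called higher and clec-66 was not. The clec-64 call there was lost in 12 of 37 alternative analyses, in 7 of them on leaving out 1 library. For clec-66 the fit gave an estimate of 0.38 (SE 0.13, adjusted p 0.0558).

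**Figure D3:**
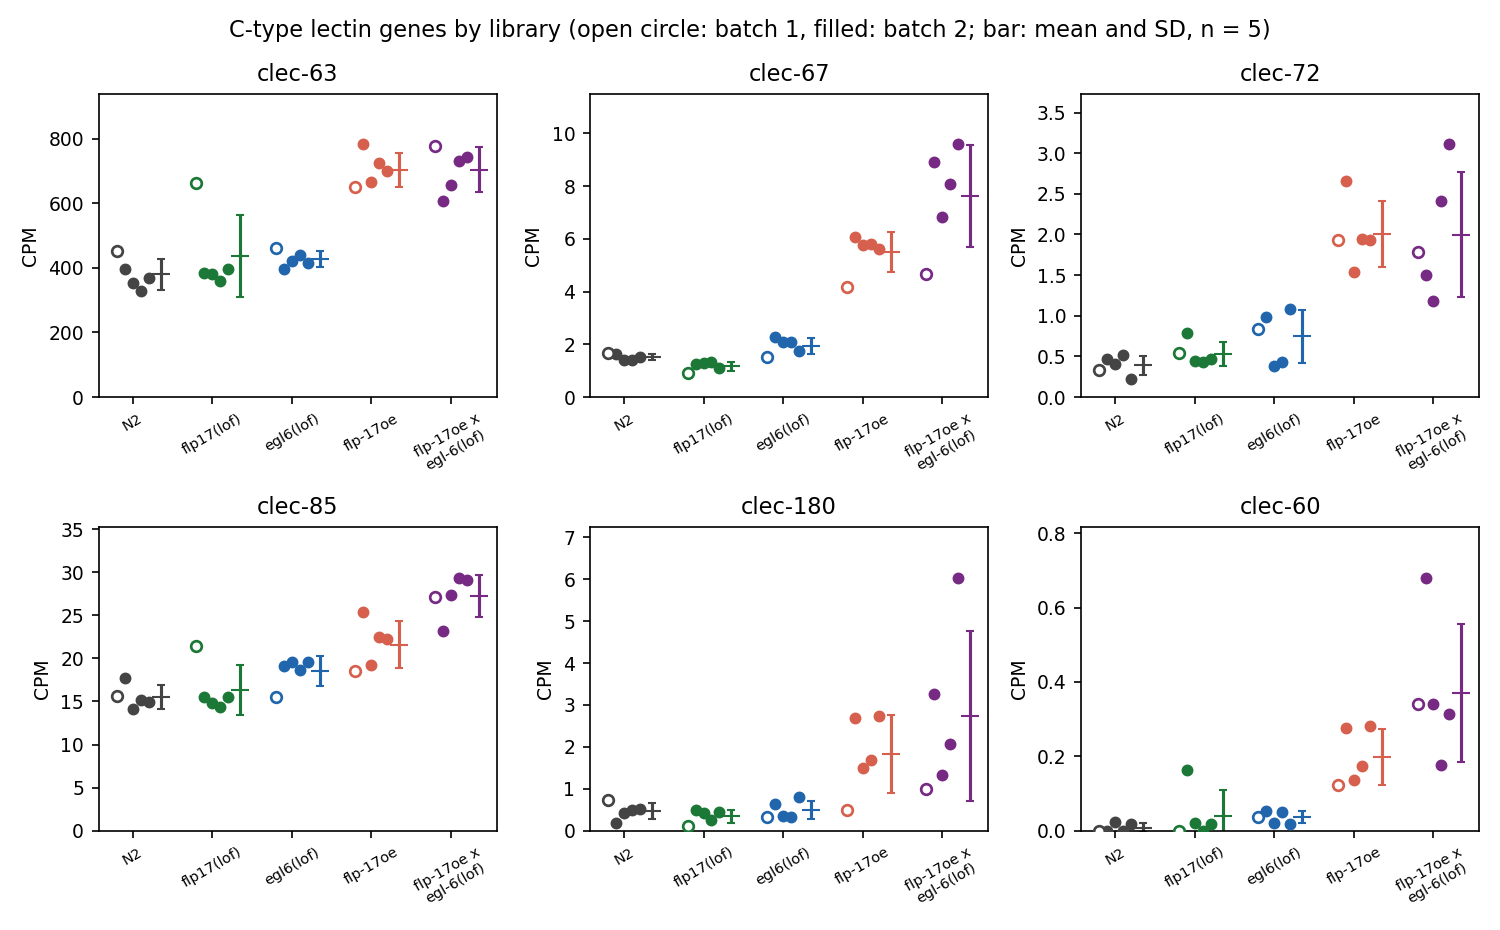
CPM of 6 C-type lectin genes in each of the 25 libraries by genotype, with open circles for batch 1, filled circles for batch 2 and a bar for the mean and SD of 5 libraries. For clec-67, clec-72 and clec-60 the array libraries of both genotypes lie above N2 and egl6(lof), whereas the batch 1 circles of clec-180 in flp-17oe and of clec-63 in flp17(lof) fall within the other group's range.

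Genes known from infection work were among the risers. clec-67 (chrIV:3922165-3925039), whose induction by pathogens depends on p38, gave the smallest adjusted p of the family. Against the N2 values above, its flp-17oe libraries held 4.17, 6.09, 5.76, 5.79 and 5.63 CPM, a log2 rise of 1.83 (SE 0.12, adjusted p 1.44e-09). Its egl6(lof) libraries held 1.504, 2.27, 2.09, 2.08 and 1.75 CPM and those of flp-17oe x egl-6(lof) 4.68, 8.93, 6.82, 8.08 and 9.60. The lowest array library was thus well above the highest library without the array, and the rise over egl6(lof) was 1.96 (SE 0.12, adjusted p 3.03e-10).

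clec-85, another p38-dependent gene, held 15.7, 17.7, 14.1, 15.1 and 14.9 CPM in N2 and 18.6, 25.4, 19.2, 22.5 and 22.3 in flp-17oe. The groups did not overlap, and the log2 rise was 0.48 (SE 0.11, adjusted p 0.00577). In flp-17oe x egl-6(lof) its libraries held 27.2, 23.2, 27.4, 29.4 and 29.1 CPM, again above all egl6(lof) libraries, of which the highest held 19.6, and the rise was 0.56 (SE 0.10, adjusted p 0.000725).

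clec-60, an intestinal gene raised by Staphylococcus aureus and Microbacterium nematophilum, stayed close to the limit of detection. It met the rule through 8 libraries, 7 of them with the array. In N2 it had 2 counts over 5 libraries, and 3 of those libraries had none. The flp-17oe libraries held 0.123, 0.277, 0.136, 0.175 and 0.282 CPM, 54 counts in all. That is a ratio of 26.3 with an exact 95% interval of 6.95 to 223 for counting error alone. The fitted rise was 4.37 (SE 0.82, adjusted p 0.00149), and over egl6(lof) it was 3.27 (SE 0.59, adjusted p 0.000538). clec-61 and clec-39, other genes of infection studies, had at most 2 counts in a library and clec-38 at most 7, so these 3 were below the rule.

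clec-42 and clec-4, both studied in defence against Bacillus thuringiensis, rose as well. Of the 12 libraries with 10 or more counts of clec-42, 10 carried the array. Mean clec-42 levels were 0.0691 ± 0.0466 CPM in N2 and 0.761 ± 0.282 in flp-17oe, a log2 rise of 3.50 (SE 0.50, adjusted p 9.66e-05). Against egl6(lof) clec-42 rose by 2.68 (SE 0.46, adjusted p 0.000386). clec-4 rose by 0.54 (SE 0.16, adjusted p 0.0387) and by 0.70 (SE 0.16, adjusted p 0.00334), but the first of these calls was lost in 13 of 38 alternative analyses. clec-41, a gene studied with them, was not called, at 44.99 ± 6.69 CPM in N2 and 55.1 ± 7.89 in flp-17oe (log2 difference 0.29, SE 0.17, adjusted p 0.319). clec-49, reported in defence against Serratia marcescens, was not called either, with 0.17 (SE 0.13, adjusted p 0.464).

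The risers without a role given here included the next largest changes. clec-72 held 0.332, 0.471, 0.404, 0.513 and 0.226 CPM in N2 and 1.94, 2.66, 1.54, 1.95 and 1.93 in flp-17oe. Its egl6(lof) libraries held 0.836, 0.988, 0.382, 0.436 and 1.08 and those of flp-17oe x egl-6(lof) 1.78, 1.498, 1.18, 2.41 and 3.11. Neither pair of groups overlapped, and the log2 rises were 2.35 (SE 0.31, adjusted p 2.66e-05) and 1.41 (SE 0.28, adjusted p 0.00125). Its neighbour clec-74 rose too, by 0.66 (SE 0.14, adjusted p 0.00384) and 0.95 (SE 0.14, adjusted p 8.9e-05), whereas clec-73, which lies between them, was called lower against egl6(lof).

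clec-180 was uneven among the array libraries. It held 0.735, 0.182, 0.426, 0.494 and 0.504 CPM in N2 and 0.492, 2.68, 1.496, 1.68 and 2.74 in flp-17oe, so the batch 1 library of flp-17oe lay within the N2 range. In flp-17oe x egl-6(lof) the libraries held 0.980, 3.25, 1.34, 2.07 and 6.04 CPM, above the egl6(lof) maximum of 0.809. The rises were 1.84 (SE 0.45, adjusted p 0.0137) and 2.42 (SE 0.44, adjusted p 0.000548). clec-17 rose by 2.02 (SE 0.54, adjusted p 0.0236) and 1.78 (SE 0.49, adjusted p 0.0134), with 9 of its 11 libraries of 10 or more counts from array strains. The first of these calls was lost in 7 of 38 alternative analyses. clec-86, on the X chromosome, rose by 1.10 (SE 0.24, adjusted p 0.00535) and 1.38 (SE 0.23, adjusted p 0.000312). The abundant clec-150 changed little in size, by 0.32 (SE 0.07, adjusted p 0.00736) and 0.26 (SE 0.07, adjusted p 0.0134).

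Some calls were made in 1 background. Against N2 alone these were clec-6, clec-27, clec-125 and clec-173, which rose, and clec-184, which fell. clec-125 rose by 1.46 (SE 0.36, adjusted p 0.0141) against N2, and against egl6(lof) its estimate was 0.69 (SE 0.35, adjusted p 0.24). Another 9 members rose against egl6(lof) alone, among them clec-33 by 1.40 (SE 0.43, adjusted p 0.0277) and clec-50 by 0.40 (SE 0.12, adjusted p 0.0305), calls lost in 8 of 36 and 9 of 38 alternative analyses. The difference between the backgrounds was tested as an interaction, and no member passed it by edgeR or by DESeq2, beside 0.00683% of all genes higher and 0.082% lower. At an unadjusted edgeR p under 0.05, 3 members had a higher and 20 a lower interaction, but the share of all genes at that threshold was not counted. Among the members highest in N2 replicate 1, listed below, 21 of 21 tested had a lower estimate. That set was chosen on N2 libraries, which enter this contrast, so the count is not independent of the choice. The share of all genes with a lower estimate was not counted. The lowest adjusted p of any member in the interaction was 0.298 (edgeR), for clec-264. Within batch 2, clec-73 and clec-119 were called lower in the interaction (1.56% of members, 1.07% of all genes).

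The 3 falls against N2 were small. clec-7 held 4.15, 5.48, 6.42, 4.52 and 6.36 CPM in N2 and 3.54, 3.79, 4.01, 3.91 and 3.71 in flp-17oe. These groups did not overlap, and its log2 change was -0.50 (SE 0.13, adjusted p 0.0184), lost in 7 of 38 alternative analyses. clec-10 changed by -0.35 (SE 0.09, adjusted p 0.0162), lost in 6 of 38. Both fell against egl6(lof) too, clec-7 by 0.53 (SE 0.13, adjusted p 0.00516) and clec-10 by 0.48 (SE 0.09, adjusted p 0.000663) on the log2 scale. clec-184 held 1.38, 1.38, 1.23, 1.33 and 1.15 CPM in N2 and 0.846, 0.979, 0.952, 1.01 and 0.993 in flp-17oe. Its change of -0.44 (SE 0.13, adjusted p 0.0410) was lost in 23 of 38 alternative analyses, including the fit with the replicate number as a block, where the adjusted p was 0.0521.

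Other gene lists moved beside these lectins. Of 43 tested genes of other secreted immune effectors, 14 rose and 2 fell against N2, with a median log2 difference of 0.16, and 18 rose and 1 fell against egl6(lof), with a median of 0.36. T24B8.5, a p38-dependent gene, rose by 2.17 (adjusted p 1.84e-06) and 2.59 (adjusted p 1.2e-07), and the lysozyme gene lys-2 by 0.76 (adjusted p 0.000926) and 1.07 (adjusted p 1.54e-05). Among 24 regulators of the p38 and immune pathways, cebp-1 and elt-2 rose against N2 and cebp-1 against egl6(lof). Molting and cuticle genes rose in number as well, 17 of 25 against N2 with a median of 1.42 and 20 of 25 against egl6(lof) with a median of 1.25. Their summed level was 91.1 to 130 CPM in N2 and 128 to 225 in flp-17oe, and 108 to 131 in egl6(lof) and 110 to 373 in flp-17oe x egl-6(lof). Body wall muscle genes fell, 6 and 7 of 14, with sums of 4578 to 5874 CPM in N2 against 3566 to 4140 in flp-17oe, and of 4783 to 6146 in egl6(lof) against 2871 to 3972 with the array. Of 18 tested intestinal genes, 5 rose and 0 fell against N2, and 4 rose and 1 fell against egl6(lof). Of 19 oocyte and eggshell genes, 0 were called against N2 and 1 rose against egl6(lof). Whether any of these lists has a part in the lectin changes was not tested.

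Few C-type lectin genes differed between the array strains. Their flp-17 levels differed too, with a mean of 188 CPM for the array alone (160.5 to 226.5). With the receptor mutation added, the mean was 232 CPM (205.5 to 277.8), so the ranges overlapped. Whether the flp-17 level has a part in the differences between these strains was not tested. In flp-17oe x egl-6(lof) against flp-17oe, 3 C-type lectin genes were higher and 2 lower, beside 1.18% and 0.219% of all genes. The array libraries of the 2 genotypes did not overlap for 2 members in each direction, beside 1.77% and 0.513% of all genes. The largest was clec-196 (chrIV:17276956-17277748), which held 0.538, 2.26, 0.748, 1.62 and 1.13 CPM in flp-17oe and 2.85, 2.78, 3.94, 3.18 and 4.07 in flp-17oe x egl-6(lof). These groups did not overlap, and the log2 rise was 1.42 (SE 0.30, adjusted p 0.0159). Its N2 libraries ran from 1.08 to 1.95 CPM and its egl6(lof) libraries from 1.57 to 2.60, which overlap.

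clec-266 (chrX:6617393-6622915) was next. Its flp-17oe libraries held 2.61, 6.94, 3.83, 6.93 and 5.19 CPM and its flp-17oe x egl-6(lof) libraries 7.93, 10.2, 12.7, 11.9 and 14.5. The groups did not overlap, and the rise was 1.17 (SE 0.22, adjusted p 0.0065). Together with the values given for egl6(lof), the 10 libraries carrying egl-6(n4537) ran from 7.93 to 14.5 CPM. The libraries without it ran from 2.61 to 8.28 CPM, with those of flp17(lof) at 3.31 to 5.48. These ranges overlap, since N2 replicates 1 and 2 exceeded flp-17oe x egl-6(lof) replicate 1. clec-266 lies 683 kb from egl-6 on the X chromosome and clec-86 lies 1205 kb from it, the nearest members. clec-196 is the nearest member to flp-17, at 85.1 kb on chromosome IV, but neither array strain carries flp-17(n4894). Whether variants linked to egl-6(n4537) have a part in the clec-266 and clec-86 levels was not tested. kqt-1, which overlaps clec-266 on the other strand, averaged 0.803 to 1.27 CPM in the 5 genotypes and was not called between the array strains (adjusted p 0.963).

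The other 3 calls were smaller in size. clec-67 rose by 0.46 (SE 0.11, adjusted p 0.0415), a call lost in 27 of 38 alternative analyses. clec-47 held 51.8, 40.2, 47.2, 41.1 and 44.7 CPM in flp-17oe and 45.1, 28.8, 32.6, 34.2 and 24.2 in flp-17oe x egl-6(lof). Those groups overlapped through the batch 1 library, and the change of -0.47 (SE 0.12, adjusted p 0.0457) was lost in 14 of 38. clec-223 held 25.6, 27.3, 34.6, 32.4 and 30.6 CPM in flp-17oe and 19.7, 27.2, 24.9, 25.8 and 25.3 in flp-17oe x egl-6(lof). Within each batch the flp-17oe x egl-6(lof) libraries were lower, and the change was -0.30 (SE 0.06, adjusted p 0.0159). This call was lost in 6 of 38 alternative analyses and that of clec-196 in 5.

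**Figure D4:**
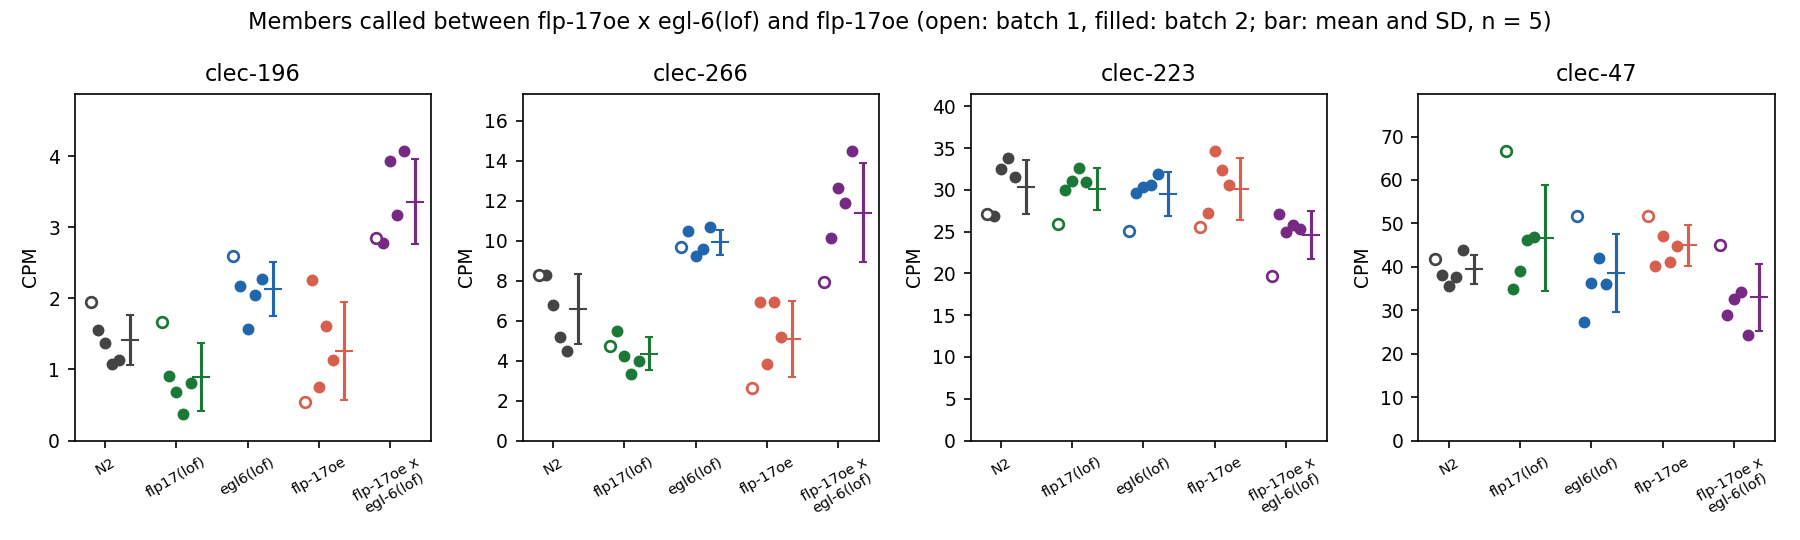
CPM of clec-196, clec-266, clec-223 and clec-47 by genotype and library, with open circles for batch 1, filled circles for batch 2 and a bar for the mean and SD of 5 libraries. The flp-17oe x egl-6(lof) points of clec-266 and clec-196 lie above all flp-17oe points, and those of clec-47 and clec-223 overlap with them.

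The falls against egl6(lof) came mostly from low members that vary between libraries. In N2 replicate 1, 22 members reached at least 3 times the highest of the other 4 N2 libraries. They were clec-73, clec-79, clec-92, clec-94, clec-95, clec-96, clec-99, clec-117, clec-123, clec-134, clec-136, clec-137, clec-138, clec-151, clec-161, clec-197, clec-207, clec-208, clec-217, clec-219, clec-221 and clec-263. This set was chosen on those N2 values after they were seen. All 21 of them that were tested fell in flp-17oe x egl-6(lof) against egl6(lof), and made up 21 of its 32 falls. That contrast holds no N2 library, but its batch term and spread were fitted on all 25 libraries, including those that chose the set. A fit of the compared genotypes only gave 13 falls, which were not divided by this set. None of the 21 was called in the other 5 comparisons when both batches were fitted. The falls outside the set were clec-7, clec-10, clec-52, clec-53, clec-56, clec-139, clec-153, clec-210, clec-223, clec-232 and clec-246.

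Summed over the 22 genes, the N2 libraries held 29.1, 2.54, 3.70, 4.73 and 1.06 CPM and the flp17(lof) libraries 2.26, 5.02, 2.91, 8.17 and 4.22. The egl6(lof) libraries held 3.47, 15.5, 19.6, 21.3 and 6.74 CPM. The flp-17oe libraries held 10.9, 1.47, 1.38, 0.918 and 0.979 and those of flp-17oe x egl-6(lof) 2.63, 1.26, 1.23, 1.67 and 0.958. Sums above 10 CPM thus stood in N2 replicate 1, in flp-17oe replicate 1 and in egl6(lof) replicates 2 to 4, and flp17(lof) replicate 4 and egl6(lof) replicate 5 came next. Between the batch 1 libraries alone, egl6(lof) and flp-17oe x egl-6(lof) differed by little, at 3.47 and 2.63 CPM.

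clec-197 (chrIV:17345553-17346699) shows the pattern. It held 3.51 CPM in N2 replicate 1 and 0.137, 0.224, 0.683 and 0.0174 in the other N2 libraries. It held 0, 1.64, 2.23, 2.46 and 0.478 CPM in egl6(lof) and 0.0297, 0, 0, 0.0527 and 0.0184 in flp-17oe x egl-6(lof). The groups overlap only through egl6(lof) replicate 1, and the log2 change was -6.61 (SE 1.51, adjusted p 0.00343). clec-123 held 0.910, 1.83, 2.21, 2.01 and 1.12 CPM in egl6(lof) and 0.520, 0.0973, 0.0787, 0.263 and 0.129 in flp-17oe x egl-6(lof), without overlap.

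The genes clec-94, clec-95, clec-134, clec-137 and clec-138 had no count in any of the 5 flp-17oe x egl-6(lof) libraries. A floor of 3 counts over that genotype is 0.0112 CPM. Mean egl6(lof) levels exceeded it 47.2-fold, 26-fold, 26-fold, 46.4-fold and 20.9-fold, a bound for counting error only. In egl6(lof) replicate 1 these genes had 0 counts too, so the ratios rest on replicates 2 to 5. Over those replicates clec-138 ran from 0.0184 to 0.462 CPM. In flp-17oe x egl-6(lof), clec-219 and clec-208 each had 1 count. The egl6(lof) libraries exceeded it 129-fold (exact 95% interval 22.8 to 5140) and 116-fold (20.4 to 4600) by counting error alone. These 2 genes had 1 and 0 counts in egl6(lof) replicate 1. The median log2 difference of the members was 0.04, beside 0.02 over all genes. Setting the 5 genes at their bound could not move that median, since they stay far below it. Several of these genes are neighbours, such as clec-94 to clec-96 on chromosome I, clec-136 to clec-138 on II and clec-207 with clec-208 on V.

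Transcripts of 28 msp genes, which encode the major sperm proteins, ran with them. All 28 fell in flp-17oe x egl-6(lof) against egl6(lof), with a median log2 change of -3.48, and 4 were higher in egl6(lof) than in N2, where the median was 2.27. Their sums were 173, 17.3, 23.3, 20.1 and 10.5 CPM in N2 and 38.99, 31.2, 25.8, 48.6 and 28.9 in flp17(lof). In egl6(lof) they were 74.5, 138, 171, 162 and 84.1 CPM. The array libraries of flp-17oe held 75.6, 14.6, 8.09, 9.71 and 5.38 and those of flp-17oe x egl-6(lof) 64.2, 2.74, 4.93, 19.1 and 6.89. N2 replicate 1 and egl6(lof) replicates 2 to 4 were high in both sums.

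In egl6(lof) replicate 1 the lectins and the msp genes parted. There 14 of the 22 lectins had 0 or 1 count, 0.0371 CPM in sum against 16.6 in N2 replicate 1, although the msp sum was 74.5 CPM. The same 14 held 0.107 CPM in flp17(lof) replicate 1 and 0.104 in flp-17oe x egl-6(lof) replicate 1, with msp sums of 38.99 and 64.2, but 5.57 in flp-17oe replicate 1. A list of 8 male genes, chosen after values were seen, summed to 0.376 to 1.45 CPM over all libraries. Of its 3 tested genes, 0 were called in any comparison, but such calls cannot show an excess in 1 library. N2 replicate 1 and flp-17oe replicate 2 each held 1.45 CPM in that sum, and flp-17oe x egl-6(lof) replicate 4 held 1.44. The male gene try-5 was highest in N2 replicate 1, at 0.593 CPM, and next in flp-17oe x egl-6(lof) replicate 4, at 0.457. The male cwp genes had 14 counts in N2 replicate 1 and at most 7 in any other library. Within batch 2, 15 of the 21 lectins called higher in egl6(lof) than in N2 belonged to the 22, as did 19 of the 31 called lower in flp-17oe x egl-6(lof) than in egl6(lof) (beside 8.69% of all genes). The first of these counts used N2 libraries that also chose the set. In that batch 27 of 27 tested msp genes were higher in egl6(lof) than in N2. Whether sperm-forming tissue has a part in the lectin levels was not tested.

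**Figure D5:**
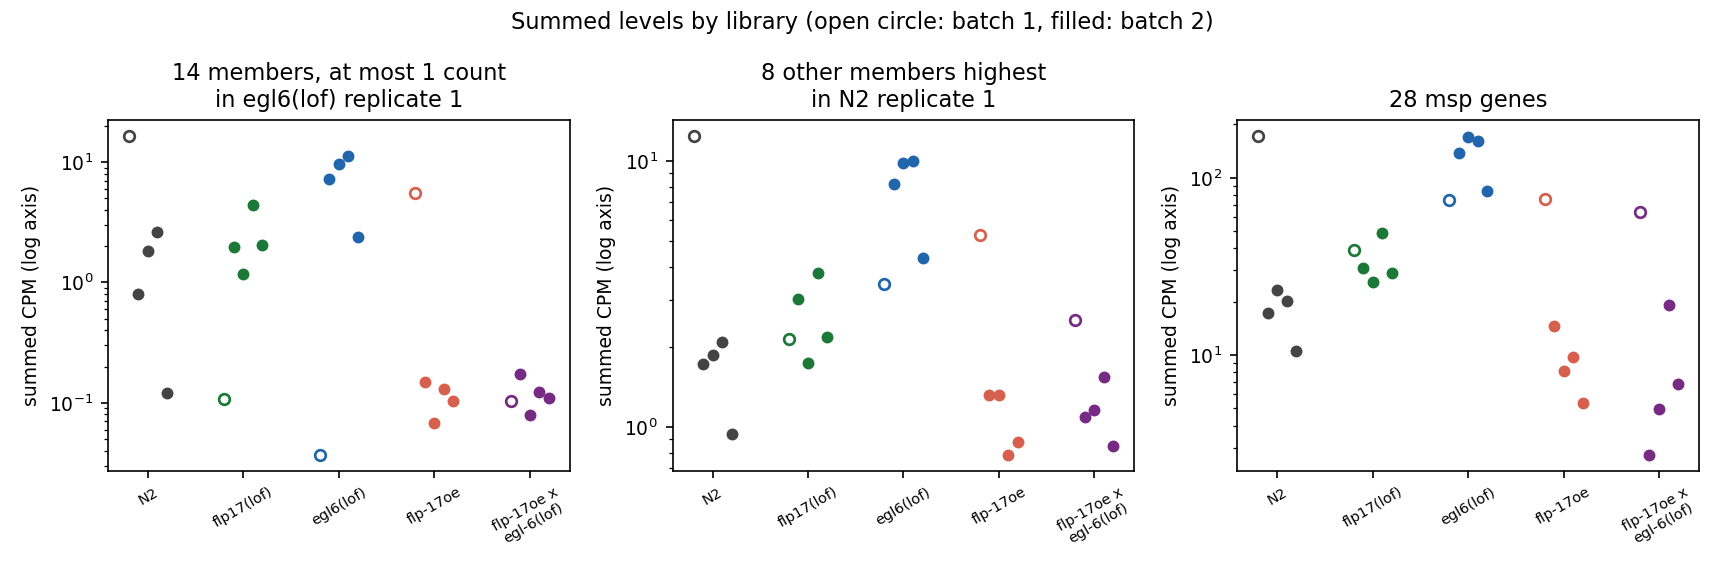
Summed CPM on log axes by genotype and library, with open circles for batch 1 and filled circles for batch 2, of 14 lectins with at most 1 count in egl6(lof) replicate 1 (left), the 8 other lectins highest in N2 replicate 1 (middle) and 28 msp genes (right). In egl6(lof) the open circle falls to 0.0371 CPM on the left but stays at 74.5 CPM on the right.

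Of the falls outside that set, clec-52 and clec-139 were the largest with a mean of 1 CPM or more over the 25 libraries. clec-210, at 0.959 CPM over all libraries, fell by 0.81 on the log2 scale, and clec-153, clec-232 and clec-246, also under 1 CPM, fell by more than clec-52. clec-52 held 5.48, 3.83, 3.45, 4.76 and 3.40 CPM in egl6(lof) and 5.12, 3.00, 1.84, 2.48 and 1.71 in flp-17oe x egl-6(lof). clec-139 held 2.14, 1.38, 1.79, 1.54 and 1.14 CPM and 1.59, 0.545, 1.13, 0.896 and 1.09. In both genes the groups overlapped through the batch 1 array library, and the log2 changes were -0.63 for clec-52 and -0.62 for clec-139 (SE 0.21, adjusted p 0.0459).

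The leading gene by level, clec-87, ran from 722 to 896 CPM in N2 and from 760 to 941 in flp-17oe, and its estimates in the 6 comparisons stayed between -0.12 and 0.10 on the log2 scale. clec-88 ran from 247 to 312 CPM in N2 and from 249 to 317 in flp-17oe. clec-87, clec-88, clec-91 and clec-1 were called in none of the 6 comparisons.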

How the data were processed

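Poly(A) RNA of whole day 1 adult worms was measured in 25 libraries of 5 genotypes. The deposited values are unnormalized whole-number counts, 1 row per gene symbol. Per the submitters' processing notes, STAR 2.7.11b and the ce11 build were used. How reads were counted, and whether by strand, is not given in the sources used here. Positions came from Ensembl 115, which matched 40181 of 42532 symbols and all 132 members.

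Genes kept by edgeR's filterByExpr (14634) were fitted with edgeR 4.0.16 in R 4.3.3 (TMM, genotype and batch terms, robust quasi-likelihood, all 25 libraries). A gene was called at a Benjamini-Hochberg adjusted p under 0.05 over all genes tested, with no minimum fold. SE is the absolute log2 change divided by the square root of F. DESeq2 1.42.0, other filters, scalings and designs and left-out libraries were tried as alternatives. Within batch 2, 14542 genes were tested. No library duplicated another of its genotype, since replicates of a genotype differed by a chi-square of 5.54 per gene or more. Libraries of different genotypes were not compared in this way. Intervals and floors cover counting error only, and reads carry no molecular identifiers.

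Named members are the 8 largest rises and falls per comparison, the 8 most abundant in N2 and genes known from infection studies. Members and lists were chosen with earlier results of these data known.

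Same-numbered libraries deviated together in every replicate for N2 with flp-17oe (correlations 0.218 to 0.649), egl6(lof) with flp-17oe x egl-6(lof) (0.107 to 0.286) and flp-17oe with flp-17oe x egl-6(lof) (0.154 to 0.431). They did not for N2 with flp17(lof) (-0.338 to 0.536) or egl6(lof) (-0.364 to 0.482).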

Additional observations from a re-analysis of the deposited data

Results flagged for a closer look

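Of 105 groups of 5 libraries, 22 held a library whose gap to the others exceeded Dixon's critical value. Chance flags about 1 in 20 groups that are chosen without regard to the values. However, clec-197, clec-94, clec-123 and the sum of the set highest in N2 replicate 1 were chosen after values were seen. Their flags in N2 replicate 1 were thus largely fixed in advance, so the number of flags cannot be set against chance. Most of them are flp17(lof) replicate 1, N2 replicate 1 or flp-17oe replicate 1, all of batch 1. In flp17(lof) replicate 1, clec-63 held 664 CPM (others 361 to 397), clec-87 595 (806 to 838) and clec-88 192 (271 to 293). In the same library clec-85 held 21.4 CPM (14.4 to 15.6), clec-52 9.13 (3.09 to 3.62), clec-139 2.58 (1.29 to 1.58) and clec-7 3.44 (5.75 to 6.40), and the members summed to 2890 CPM (2650 to 2690). This is the library with the highest share of ribosomal RNA.

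In N2 replicate 1, clec-197 held 3.51 CPM (others 0.0174 to 0.683), clec-94 1.28 (0 to 0.224) and clec-123 2.37 (0.0869 to 0.395), and the 22 members chosen for being highest there summed to 29.1 CPM (1.06 to 4.73). In flp-17oe replicate 1 the same quantities were 1.35 CPM (0.0148 to 0.0227), 0.661 (0 in the others), 1.03 (0.0890 to 0.170) and 10.9 (0.918 to 1.47). There clec-52 held 4.7 CPM (2.45 to 2.89) and clec-67 4.17 (5.63 to 6.09).

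The rest were clec-88 in flp-17oe replicate 2 at 249 CPM (300 to 317), clec-85 in egl6(lof) replicate 1 at 15.5 (18.7 to 19.6), clec-184 in egl6(lof) replicate 3 at 1.26 (0.989 to 1.06) and clec-60 in flp17(lof) replicate 2 at 0.163 (0 to 0.0199).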

How the results depend on the processing

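The results were recomputed under 38 alternatives, 1 of which was chosen after seeing the data. Of 46 calls on named members, 20 were kept in every alternative that gave a value, and none reversed. The number of members called in flp17(lof) against N2 was 0 in all of them. In egl6(lof) against N2 it was 0 with all libraries, 5 with DESeq2 and 1 with a stricter count filter, and 0 to 21 when replicates were left out. Single libraries that moved it from 0 were N2 replicate 1 (8 without it), flp17(lof) replicate 1 (5) and egl6(lof) replicate 1 (9). For flp-17oe against N2 the 27 became 10 to 31 when replicates were left out. For flp-17oe x egl-6(lof) against flp-17oe the 5 became 2 without a batch term, 2 with the compared genotypes only and 0 to 8 when replicates were left out. There, leaving out flp-17oe replicate 3 gave 1, flp-17oe replicate 4 or 5 gave 3, flp-17oe x egl-6(lof) replicate 1 gave 8, its replicate 2 or 5 gave 3 and its replicate 3 gave 2. For flp-17oe x egl-6(lof) against egl6(lof) the 61 became 35 (22 higher, 13 lower) with the compared genotypes only, a shift in the split from 29 and 32, 43 (28 higher, 15 lower) with a stricter count filter and 41 to 65 when replicates were left out. The interaction gave 0 to 2, with 2 without egl6(lof) replicate 1. Leaving out flp17(lof) replicate 1 and N2 replicate 1 together, an alternative added later, gave 9 for egl6(lof) against N2 and 9 for flp-17oe x egl-6(lof) against flp-17oe. The cause of these shifts was not tested. With the replicate number as a block the counts were 0, 0, 28, 5, 60 and 0 in the order flp17(lof), egl6(lof) and flp-17oe against N2, flp-17oe x egl-6(lof) against flp-17oe and egl6(lof), and interaction. Among named members the block ended only the call on clec-184. Depth limits the members under 1 CPM, where 1 count is a large share of the level.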
